A study of Homo sapiens with 31 samples.

Results

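LARP1 was knocked down with siRNA for 72 h, and the mRNA content of the lysates was compared with that of control siRNA lysates. The comparison used 4 of the 31 libraries of the series, chosen by their labels alone: 2 input libraries after LARP1 siRNA (siLARP1) and 2 after control siRNA (siControl). The cells of all 4 were HEK293 T-REx, a human embryonic kidney line built for inducible expression of a transgene, and they expressed eIF4A1 carrying a streptavidin-binding peptide (SBP-eIF4A1). None of the 4 had a labelled PP242 treatment or an EIF4A1 or EIF4A2 knockout. Inputs are the lysate RNA taken beside a pulldown, sequenced with a stranded mRNA kit, and the pulldown libraries were not used. The labels do not say whether replicates were separate cultures, so p-values measure the spread between these libraries, which may be technical.

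LARP1 is an RNA-binding protein that recognises the cap and the adjacent 5′ terminal oligopyrimidine (TOP) sequence of a class of mRNAs that encodes ribosomal proteins and translation factors. It is known both to repress translation of these mRNAs when the mTOR kinase is inactive and to protect them from decay. The inputs ask which mRNAs change in amount when LARP1 is reduced, apart from any change in their translation or in their binding to eIF4A1. The transcripts of this series carry Ensembl identifiers and no gene names, so the level of LARP1 itself, the HEK293 markers and lists of named genes were not read from these libraries. The knockdown therefore rests on the labels. Transcripts of the siRNA target itself may be among those that fell, including those given below by identifier.

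The 4 inputs held 11890432 to 16781726 counts over 1 transcript per locus, and 29145 to 30127 of these transcripts had at least 1 count. The 10 most abundant transcripts took 6.99% and 7.10% of the counts in the siControl libraries, against 5.57% and 5.44% in the siLARP1 libraries. The 100 most abundant took 26.4% and 27.4%, against 21.6% and 22.0%. Both shares were lower in each siLARP1 library than in either siControl library. CPM below are counts scaled to the library's total after TMM scaling. Across 5812 transcripts whose log2 CPM averaged 5 or more, the siControl libraries correlated at a Pearson r of 0.983 and the siLARP1 libraries at 0.965. Libraries of different groups correlated at 0.949 to 0.968, a range that holds the value of the siLARP1 pair. The SD over those transcripts of the log2 difference between replicates was 0.229 for siControl and 0.311 for siLARP1, and that of the difference between group means was 0.288.

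Few single transcripts passed the test after LARP1 knockdown, and those that fell were mostly more abundant than those that rose. Of 22855 transcripts tested, 13 were lower and 12 higher in the siLARP1 inputs by the quasi-likelihood test of edgeR (adjusted p under 0.05). These calls are 0.109% of the transcripts tested, 0.0569% lower and 0.0525% higher. At an unadjusted p under 0.05 the test gave 2949 transcripts, or 12.9% (1694 higher, 7.41%, and 1255 lower, 5.49%). The 13 that fell were mostly abundant: their mean level in siControl ran from 23.3 to 25856 CPM with a median of 1471, and 10 of them stood at 500 CPM or more. The 12 that rose ran from 1.48 to 73.2 CPM with a median of 9.47. All tested transcripts had a median of 8.96 CPM. The falls were small, with log2 changes of -1.49 to -0.68, and only 2 of 13 went beyond 1 log2 unit. The rises ran from 1.20 to 2.61, so all 12 exceeded 1 log2 unit. The median SE of the log2 change was 0.139 for the falls and 0.225 for the rises. The part of the SE in the difference of size was not tested. In each of the 25 transcripts, both siLARP1 values lay on the same side of both siControl values. That separation alone was common, since it held in the lower direction for 20.8% of the transcripts tested and in the higher direction for 23.3%.

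**Figure D1:**
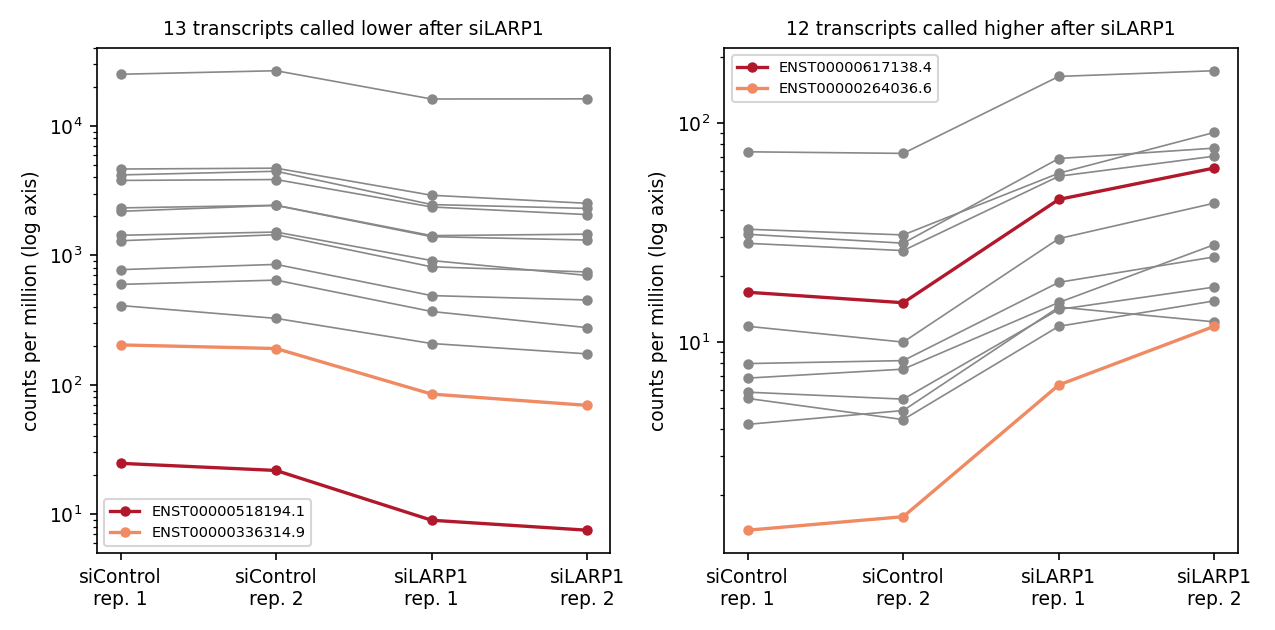
CPM (scaled counts) of the 25 transcripts past the threshold in each of the 4 input libraries, on log axes, with transcripts that were lower after siLARP1 on the left and higher on the right. Each line joins the values of 1 transcript; coloured lines are the transcripts named in the text. In the left panel 10 of 13 lines start at 500 CPM or more, and in the right panel all 12 start below 100 CPM.

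The largest fall belonged to the transcript ENST00000518194.1, with a deposited length of 140. It stood at 24.7 and 21.8 CPM in the siControl inputs and at 8.99 and 7.53 CPM in the siLARP1 inputs. Its log2 change was -1.49 (SE 0.22, edgeR adjusted p 0.0146), from 395 and 247 counts to 126 and 94. The second largest fall was that of ENST00000336314.9, a transcript of length 1010. It went from 203.2 and 190.6 CPM to 84.7 and 69.3 CPM, a log2 change of -1.35 (SE 0.17, edgeR adjusted p 0.00709). Both transcripts were well separated between the groups, and their 2 rows lay 8 distinct rows apart in the deposited tables. Rows that close may hold shared reads, so the pair may not be 2 independent observations. Neither was paired with a gene, so either or both may come from the siRNA target itself. A further 8 distinct rows were assigned to the locus of ENST00000336314.9, and tested among all distinct rows they changed by -1.41 to -1.09, with 7 of the 8 past the threshold. Rows were assigned to a locus by a correlation of 0.9 or more with the kept row, and they may share reads. Their agreement with ENST00000336314.9 was therefore largely fixed by the assignment and is not separate evidence of its fall. For neither ENST00000518194.1 nor ENST00000336314.9 did the naive footprints pass the test of a dose trend with PP242 (edgeR adjusted p 0.908 and 0.451).

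The other 11 transcripts that fell had log2 changes between -0.95 and -0.68. Among them was the most abundant transcript of the siControl inputs. It stood at 25042 and 26671 CPM in siControl and at 16125 and 16168 CPM in siLARP1, a log2 change of -0.68 (SE 0.11, edgeR adjusted p 0.0351). Here the siLARP1 libraries differed from each other by far less than from siControl. Another abundant transcript went from 4178 and 4461 CPM to 2467 and 2304 CPM, a log2 change of -0.86 (SE 0.13, edgeR adjusted p 0.0191). These examples were chosen after their values were seen, for their level.

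Of the transcripts that rose, ENST00000264036.6 (length 637) changed most. It had 22 and 18 counts in the siControl inputs and 89 and 147 in the siLARP1 inputs, or 1.38 and 1.59 CPM against 6.35 and 11.8. The log2 change was 2.61 (SE 0.35, edgeR adjusted p 0.00893). On the CPM scale the siLARP1 values differed more from each other than the lower of them did from siControl. ENST00000617138.4 (length 143) rose from 16.8 and 15.1 CPM to 44.7 and 62.2 CPM, a log2 change of 1.74 (SE 0.21, edgeR adjusted p 0.00709). A second transcript that rose, by 1.73, lay 3 distinct rows from it, and all 17 tested rows within 10 rows of ENST00000617138.4 changed upward. Such rows may hold shared reads and are not independent observations. Within 10 rows of ENST00000264036.6, 8 of 15 tested rows changed upward. Over all 25 transcripts, 2 pairs lay within 10 rows of each other, each with both members moving in the same direction. In 11 of 12 transcripts that rose, replicate 2 of siLARP1 was the higher of the pair, and in 11 of 13 that fell it was the lower.

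The number of calls varied widely with the libraries and settings used, while the direction of the 25 did not. Fitting the 6 inputs of SBP-eIF4A1 cells together, with the 2 inputs that had no siRNA, gave 249 higher (1.01%) and 290 lower (1.18%) transcripts, 2.19% of 24638. All 8 inputs of the series, with those of SBP-eIF4A2 cells, gave 677 higher (2.67%) and 732 lower (2.89%), 5.56% of 25344. All 25 calls were also called in both of these fits. Both hold the 4 libraries of the main comparison, so this is not separate evidence. Leaving out siControl replicate 1, siControl replicate 2, siLARP1 replicate 1 or siLARP1 replicate 2 gave 119, 14, 116 and 17 calls. Of the 25 transcripts, 24, 10, 25 and 7 were then still called. The split also moved. It was 24 higher and 5 lower when each library's trend over length and level was removed, 141 higher and 140 lower when the trend over length alone was removed, and 101 higher and 192 lower under the DESeq2 Wald test. With the replicate number as a block the counts were 53 higher and 51 lower.

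The change went with abundance at the upper end of the range. Transcripts at a log2 CPM under 3 had a median log2 change of 0.09 in the siLARP1 inputs, and those from 5 to 7 had -0.01. From 7 to 9 the median was -0.10, and 64.9% of 1149 transcripts were lower. From 9 to 11 it was -0.36, with 83.3% of 168 lower. All 47 transcripts at a log2 CPM of 11 or more were lower, with a median of -0.48, and 4 of them passed the test. Relative to the mean of the 4 libraries, these 47 stood at 0.21 and 0.29 in the siControl libraries and at -0.29 and -0.21 in the siLARP1 libraries (median log2 difference, CPM + 0.5). The siControl and siLARP1 medians did not overlap. Abundance was measured in the same libraries, so it was set beside the naive RNA-seq libraries, which share no sample with the comparison. Of the 100 transcripts most abundant there, 93 were lower after siLARP1, with a median of -0.46 and 6 past the test in the lower direction, against 46.4% lower and a median of 0.03 over all tested transcripts. Below that end the naive RNA level showed no grade. Over the 5812 transcripts at a log2 CPM of 5 or more, its Spearman rho with the change was -0.053, and 0.006 without the PP242-responsive transcripts described next. Divided into 10 equal groups by naive RNA level, these transcripts had a median of -0.08 in the lowest group and -0.18 in the highest, and the 8 groups between ran from -0.07 to 0.03.

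**Figure D2:**
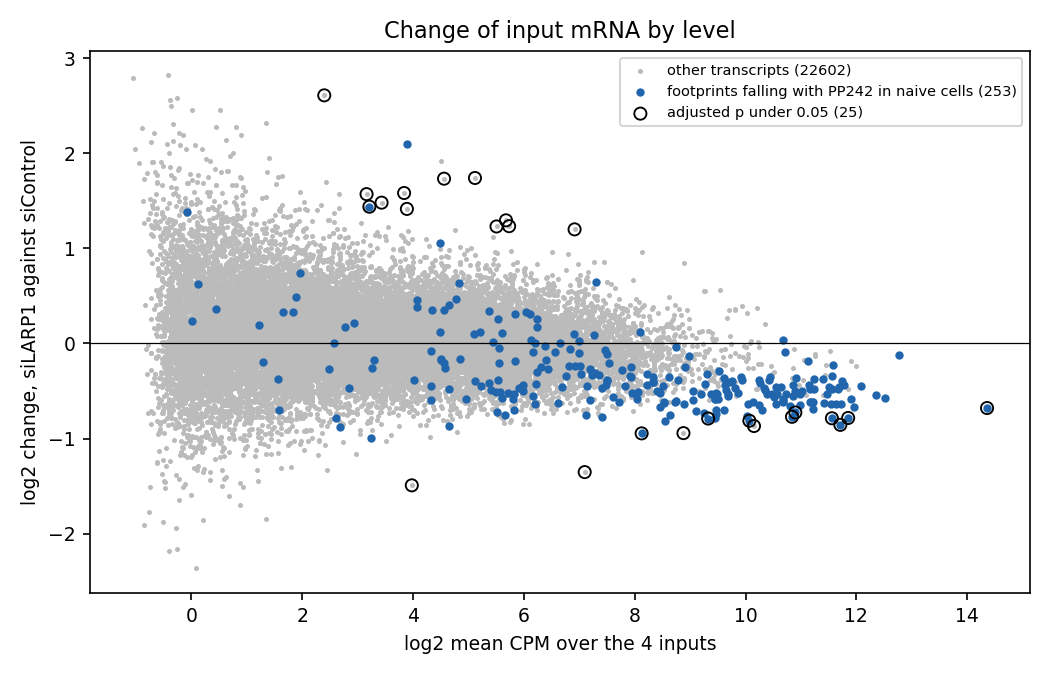
Log2 change of each tested transcript after siLARP1 (vertical axis) against its log2 mean CPM over the 4 inputs (horizontal axis). Blue points are the 253 transcripts whose footprints fell with PP242 in naive cells, grey points the other transcripts, and circles the 25 calls. The cloud bends downward above a log2 CPM of about 9, and most lower calls are blue points at the right.

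TOP mRNAs are the textbook class whose translation falls when mTOR is inhibited, so transcripts with such a response were taken from the ribosome profiling libraries, which share no sample with the inputs. PP242 inhibits the mTOR kinase, and footprints are the RNA fragments protected by ribosomes. In naive cells (2 DMSO libraries, and 1 library each at 1 and 10 µM PP242 for 30 min) the footprints of 257 transcripts fell with dose by edgeR's test, and 253 of them were tested in the inputs. They carry no gene names, so they are not called TOP mRNAs here. They made up 24.4% and 25.3% of the counts in the siControl inputs, and 18.8% and 19.9% in the siLARP1 inputs. The PP242-responsive transcripts thus took a smaller share of both siLARP1 libraries than of either siControl library.

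Of the 253, 9 were called lower and 1 higher after siLARP1. That is 3.56% lower, against 0.0569% of all tested transcripts. At an unadjusted p under 0.05, 152 (60.1%) were lower and 8 higher, against 5.49% lower over all tested transcripts. Put the other way, 9 of the 13 transcripts that fell (69.2%) were PP242-responsive, while 1.11% of the tested transcripts were. The median log2 change of the 253 was -0.44, with 83.0% below 0 and values from -0.99 to 2.10. In 180 of them (71.1%) both siLARP1 values were below both siControl values, against 20.8% of all tested transcripts. The transcripts outside the set had a median of 0.04. The 253 were also more abundant, with a median log2 CPM of 8.04 against 3.21 over all tested transcripts. A nearer background is the 5812 transcripts at a log2 CPM of 5 or more, whose median level was 6.10. Of these, 0.206% were called lower and 12.1% were lower at an unadjusted edgeR p under 0.05. In 31.5% of them both siLARP1 values were below both siControl values. In the fit of 6 inputs, 102 of the 253 (40.3%) were lower and 3 higher, against a background of 1.18% lower.

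**Figure D3:**
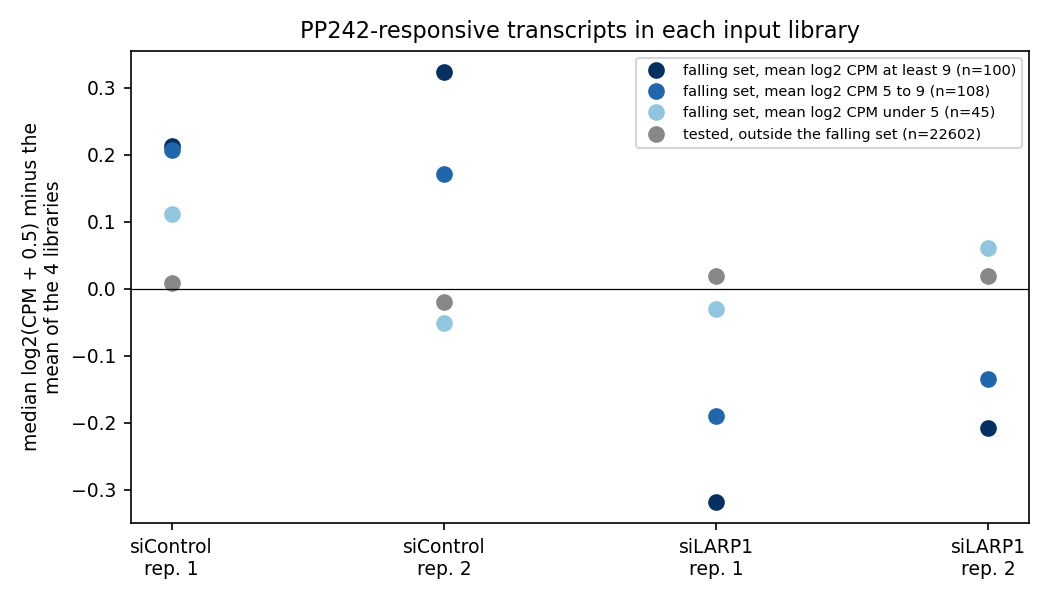
Median over transcripts of log2(CPM + 0.5) minus the mean of the 4 libraries (vertical axis) in each input library, for PP242-responsive transcripts in 3 classes of level and for all other tested transcripts. The most abundant class stands at 0.21 and 0.32 in siControl and at -0.32 and -0.21 in siLARP1, while the class under a log2 CPM of 5 overlaps between the groups.

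Within the PP242-responsive transcripts the fall was carried by the abundant ones. The 100 at a log2 CPM of 9 or more had a median change of -0.53, and 99 were lower. Their middle 50% lay between -0.635 and -0.44. Of these, 8 passed the test. The 108 between 5 and 9 had a median of -0.38, and 1 was called lower. The 45 under 5 had a median of 0.00, with 22 of 45 below 0, none called lower and 1 called higher (7 lower and 7 higher at an unadjusted p under 0.05 by edgeR). Their per-library medians were 0.11 and -0.05 in siControl and -0.03 and 0.06 in siLARP1, which overlap. The middle 50% of this class ran from -0.38 to 0.39.

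The PP242-responsive transcripts were also set beside other transcripts of high abundance. Of the 100 transcripts most abundant in naive RNA-seq, 64 were PP242-responsive and 36 were not. The 64 had a median log2 change of -0.53 after siLARP1, with 63 of them lower, 5 called lower and 58 lower at an unadjusted p under 0.05. The 36 had a median of -0.23, with 30 of them lower, 1 called lower and 14 lower at an unadjusted p under 0.05. Both subsets were lower, and the PP242-responsive one by more. The difference between them was not tested. The 2 subsets were not matched for level or length. Their median log2 CPM in the inputs was 11.1 and 10.5, and their median lengths were 182 and 430. The part of level and of length in the difference was not tested.

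The deposited length moved with the change as well. Among transcripts at a log2 CPM of 5 or more, those shorter than 100 had a median log2 change of -0.30, those from 100 to under 200 had -0.25, and those from 200 to under 400 had -0.13. From 400 to under 800 the median was 0.01, and at 800 or more it was 0.095. The Spearman rho of change and length was 0.456 over 5812 transcripts, which share the 4 libraries and are not independent replicates. In the class under 100 the groups did not overlap: the siControl libraries stood at 0.13 and 0.18 and the siLARP1 libraries at -0.24 and -0.08 relative to the mean of the 4. The unit of the deposited length is not given, so it only ranks transcripts here. Of all deposited values 313 were below 0, with a lowest of -9, so it may not be a plain length. The lowest among the tested transcripts was 4.

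At each length the PP242-responsive transcripts were lower than the others. Their medians were -0.415 (38 transcripts) under 100, -0.52 (85) from 100, -0.49 (51) from 200, and -0.35 (30) from 400 to under 800. The other transcripts of the same classes stood at -0.28, -0.22, -0.13 and 0.02. The gap was narrowest in the shortest class. The 4 PP242-responsive transcripts of 800 or more had a median of -0.41 and are too few to describe. With each library's trend over length alone removed, a setting added after the data were seen, the median of the 253 was -0.46. With the trend over length and level removed together it was -0.10, and 2 were called lower. The part of level in this difference was not tested.

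**Figure D4:**
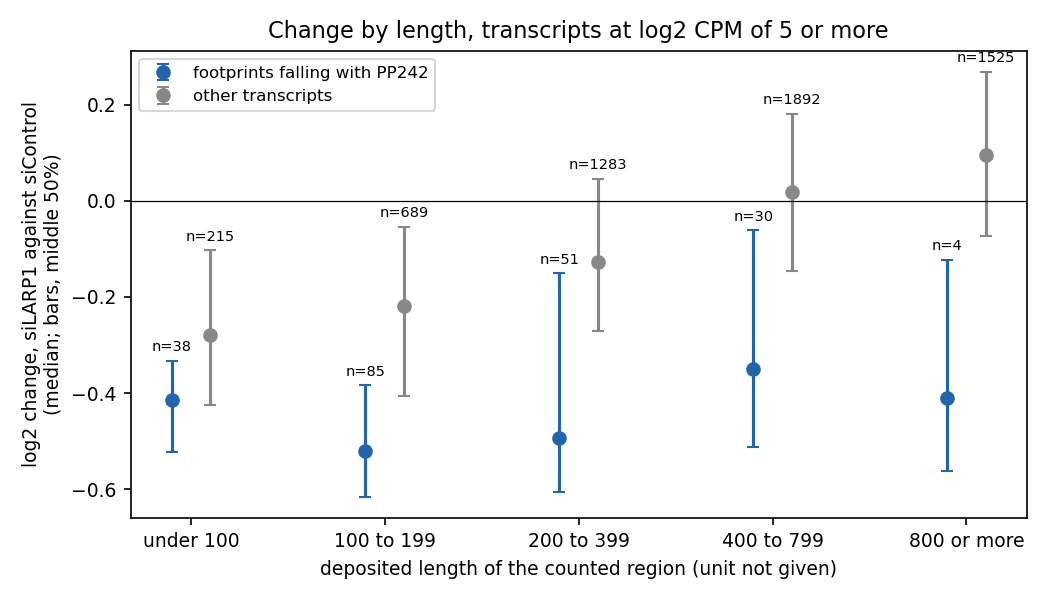
Median log2 change after siLARP1 (points) with the middle 50% of transcripts (bars) in 5 classes of deposited length, for PP242-responsive transcripts (blue) and all other transcripts (grey) at a log2 CPM of 5 or more. The grey medians climb from -0.28 to 0.10 with length, and the blue medians stay between -0.52 and -0.35.

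The relation to PP242 was not limited to the transcripts past the threshold. The 5805 transcripts at a log2 CPM of 5 or more with a footprint value were ranked by their log2 change in naive footprints (mean of both PP242 doses against DMSO) and divided into 10 groups of equal size. In the group with the strongest fall of footprints (median -0.59) the median log2 change of input mRNA after siLARP1 was -0.30, and 435 of 580 transcripts were lower. In the next group it was -0.12. From there it climbed slowly to 0.02 in the group whose footprints rose most (median 0.37), where 45.4% were lower. The Spearman rho over the 5805 transcripts was 0.246, and 0.187 without the PP242-responsive transcripts. Median length climbed over the same 10 groups, from 248.5 to 813, and the part of length in this relation was not tested.

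**Figure D5:**
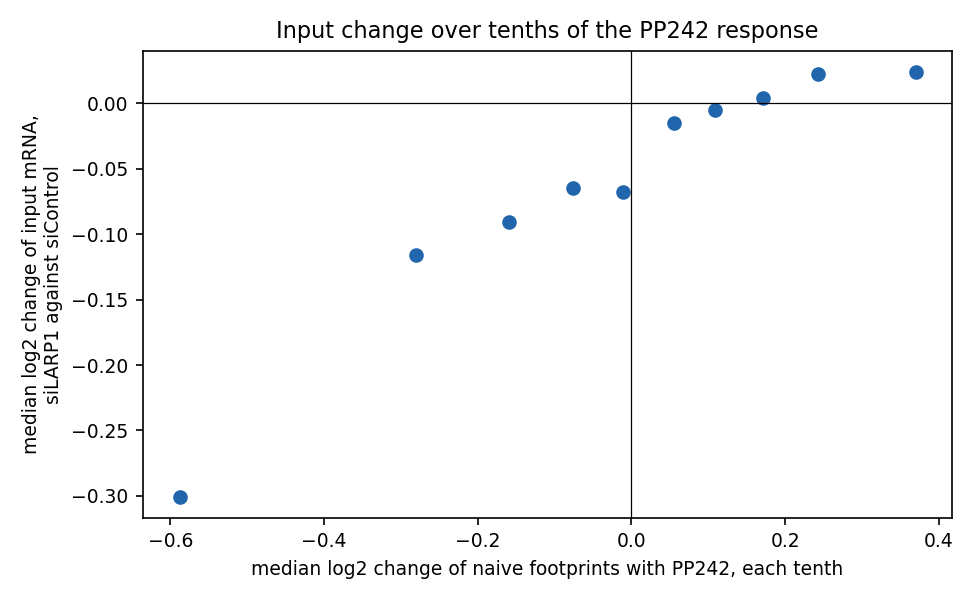
Median log2 change of input mRNA after siLARP1 (vertical axis) against the median log2 change of naive footprints with PP242 (horizontal axis) in 10 equal groups of transcripts ranked by the latter. The leftmost group, at -0.59, stands at -0.30, and the other 9 lie between -0.12 and 0.02.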

How the data were processed

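The authors deposited 1 table per library with a raw count per versioned Ensembl transcript, and a length per transcript in another column whose unit is not stated; both were read from the values, since the tables have no header. Per the submitters' processing notes, STAR 2.7.0a, CASAVA 1.8 and hg38 were used; the counting tool and annotation are not given in the sources used here. Of 227264 transcripts, 94734 had counts. Rows with equal counts in all 31 files were collapsed to 77343. A read can be counted in several rows, so 1 row per locus was kept (35499): rows were taken by total count, and a row was dropped when its log2 CPM (pseudocount 0.5 counts) correlated at 0.9 or more with a kept row within 10 rows.

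The main test was edgeR 4.0.16 in R 4.3.3 on the 4 inputs, with TMM scaling, filterByExpr (minimum count 10, total 15), glmQLFit and glmQLFTest, group means only, two-sided, Benjamini-Hochberg adjusted over 22855 transcripts. SEs are the log2 change divided by the square root of F. The naive PP242 trend was fitted over the 12 profiling libraries with a slope per genotype over a dose score. On data simulated for the siLARP1 input comparison (22498 transcripts, 200 of them changed 2-fold at 5 CPM or more), 72% of the changed transcripts were called, with 5 false calls. DESeq2 1.42.0 was an alternative.

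The planned gene lists, LARP1 level and 1 transcript per gene could not be applied, as no table used here pairs these transcripts with genes. The rule named the 2 higher and 2 lower transcripts with the largest change among those called, with groups apart and a mean of at least 5 CPM. Members and lists were chosen with earlier results of these data known.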

Additional observations from a re-analysis of the deposited data

How the results depend on the processing

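The median of the PP242-responsive transcripts was below 0 under all 15 alternatives, between -0.51 and -0.10. It moved by more than the spread between replicates (0.057) in 3 of them: to -0.10 with the trend over length and level removed, to -0.50 without siControl replicate 1 and to -0.51 without siLARP1 replicate 2. Leaving out each library in turn gave -0.51 to -0.39. Each of the 25 calls kept its direction in every alternative that tested it, which the separation of their groups made nearly certain. The number of transcripts tested differed between settings. It was 22855 in the main test, 32607 without a filter on low counts and 59937 over all distinct rows. The fits of 6 and 8 inputs tested 24638 and 25344. The DESeq2 Wald test gave no adjusted p for 13736 of 22855. Of the PP242-responsive transcripts, 253 were tested in the main test, 257 without the filter and fewer with the longest row per locus. The counts below are therefore not directly comparable between settings. Counts of calls, higher and lower, and of PP242-responsive transcripts called lower, were as follows. DESeq2 size factors gave 146 calls, 77 and 69, with 40 responsive. The DESeq2 Wald test gave 293, 101 and 192, with 77. Without a filter on low counts there were 572, 320 and 252, with 100. In the fit of 6 inputs there were 539, 249 and 290, with 102, and in that of 8 inputs 1409, 677 and 732, with 132. Removing the trend over length and level gave 29, 24 and 5, with 2, and over length alone 281, 141 and 140, with 51. All distinct rows gave 97, 33 and 64, with 11, and the longest row per locus 36, 16 and 20, with 12. Leaving out each library gave 14 to 119 calls, 11 to 89 higher and 3 to 59 lower, with 1 to 29 responsive. The cause of these differences was not tested.

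With the replicate block there were 104 calls, 53 and 51, with 43 responsive. The labels do not say whether same-numbered libraries of the 2 groups belong together. The log2 differences between replicates 1 and 2 correlated at -0.10 between the groups, which cannot decide this. With the numbers crossed, a pairing added after the data were seen, there were 537 calls, 353 and 184, with 58 responsive. Of the 4 named transcripts, ENST00000518194.1 (-1.38) and ENST00000264036.6 (2.10) fell short of the threshold without siLARP1 replicate 2, each at an edgeR adjusted p of 0.0534. DESeq2 gave no adjusted p for ENST00000264036.6. How depth limits the calls at low levels was not tested.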

Other observations

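The transcripts whose footprints rose with PP242 in naive cells numbered 39, and all were tested in the inputs. Their median log2 change after siLARP1 was -0.07, with 23 of 39 below 0 and none called in either direction by edgeR (1 lower and 1 higher at an unadjusted p under 0.05). All tested transcripts at a log2 CPM of 5 or more had a median of -0.04.

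The change after siLARP1 was also set beside readouts of other libraries of the series, among transcripts at a log2 CPM of 5 or more. Its Spearman rho with the log2 change of RNA in EIF4A1 KO against naive cells was 0.234 over 5812 transcripts. In the 582 transcripts that rose most in EIF4A1 KO cells (median 0.53) the median change after siLARP1 was 0.10. Of these, 3 were called higher, against 5 of all 5812. In the 581 that fell most (median -0.45) it was -0.08, and it was lower, at -0.14, in each of the next 2 groups, so the relation was not even over the range. Over the same 10 groups, median length climbed from 361 to 689.5. The 2 comparisons share no library. With translation efficiency in naive cells (footprints against RNA) the rho was -0.128 over 5805 transcripts. The group with the lowest efficiency had a median of 0.085, against -0.08 in the group with the highest. Median length was 754.5 in the former and 341 in the latter, and the part of length in this relation was not tested. These relations are across transcripts, which are not replicates, and carry no p-value.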
